A study of Mus musculus with 6 samples.

Results

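Messenger RNA was measured for 54 genes of the cell division cycle in mouse heart cells, after treatment with carbon tetrachloride (CCl4) and without it. The genes are a named set of cyclins, replication factors, transcription factors and mitotic proteins, taken by symbol with no filter on level. All 54 were found, each on 1 of the 32479 rows of the expression table. They were divided by role into 5 G1 cyclins and CDK2, 15 replication genes, 3 cell cycle transcription factors, and 31 mitotic genes made up of 4 mitotic cyclins and CDK1 and 27 genes of the mitotic machinery. The study used C57BL/6J mice, an inbred laboratory strain, and CCl4 (CCL4 in the labels), a solvent that injures the liver and is used to model cirrhosis. Its stated question was how cirrhosis acts on the heart. There were 3 control mice and 3 CCl4 mice, and the cells sequenced from each mouse are labelled as primary cardiac fibroblasts. Both groups were of the same strain and no transgene is named. The dose, route and duration of CCl4, the age and sex of the mice, any vehicle for the controls, and how cells were isolated could not be read from the labels.

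A cell that commits to divide first makes D-type cyclins, which act with CDK4 and CDK6 to inactivate the retinoblastoma family of repressors. The released E2F factors switch on cyclin E and the genes that license and copy DNA. Later, FOXM1 and the B-MYB complex switch on the cyclins, kinases and spindle proteins of mitosis. In quiescent cells the DREAM repressor complex holds these genes down, and CDK inhibitors such as p21 and p27 block the kinases. Most cells of the healthy adult heart are not dividing, and cardiac fibroblasts can re-enter the cycle after injury.

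Promoter letters of the replication and mitotic genes were counted, with no test of the difference, and 4 examples are shown because these 2 lists are compared in what follows. Windows from 250 bases before to 50 bases after the RefSeq start (build GRCm38.p6) were given for 44 of the 54 genes, as 48 windows. They were searched on both strands for CHR letters (TTTGAA or TTCGAA, an element bound by DREAM and the B-MYB complex), for CCAAT (bound by NF-Y) and for E2F letters (TTTGGCGC, TTTCCCGC, TTTGGCGG or TTTCGCGC). Matches to different motifs overlapped each other in the windows of Cdca8 and Mcm7. CHR letters stood in 24 of 28 windows of mitotic genes (85.7%) and in 3 of 16 windows of replication genes (18.8%), against 19.2% of all 32851 windows. E2F letters stood in 1 mitotic window (3.57%) and in 7 replication windows (43.8%), against 2.37% of all windows. CCAAT was frequent in both lists, at 89.3% of mitotic and 75% of replication windows, against 37.4% of all. A match is a description of letters and does not show binding. The sequences run 5′ to 3′ along the gene's own strand over the 190 bases before the start, from RefSeq, and hold no annotated exon. Capitals mark CHR letters and CCAAT for Mki67 (chr7:135716380-135716569, minus strand) and Top2a (chr11:99024190-99024379, minus strand). Capitals mark E2F letters and CCAAT for Mcm5 (chr8:75109319-75109508, plus strand) and Mcm6 (chr1:128359706-128359895, minus strand). ATTGG and TTCAAA are matches on the opposite strand, and E2F matches on opposite strands overlap in both Mcm promoters. The 4 shown all hold the CHR or E2F letters of their list, and other members did not. Over the same 190 bases Cenpf held 0 CHR matches, Mcm2 held 1 CHR and 0 E2F matches, and Mcm3 and Rrm1 held 0 E2F matches.
Mki67: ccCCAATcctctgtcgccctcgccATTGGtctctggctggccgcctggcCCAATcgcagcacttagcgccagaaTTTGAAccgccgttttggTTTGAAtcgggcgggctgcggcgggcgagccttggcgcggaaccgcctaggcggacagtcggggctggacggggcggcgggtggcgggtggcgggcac
Top2a: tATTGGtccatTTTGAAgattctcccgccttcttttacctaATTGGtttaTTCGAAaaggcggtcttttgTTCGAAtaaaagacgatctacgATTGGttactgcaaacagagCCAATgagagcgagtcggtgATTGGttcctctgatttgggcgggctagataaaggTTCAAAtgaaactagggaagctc
Mcm5: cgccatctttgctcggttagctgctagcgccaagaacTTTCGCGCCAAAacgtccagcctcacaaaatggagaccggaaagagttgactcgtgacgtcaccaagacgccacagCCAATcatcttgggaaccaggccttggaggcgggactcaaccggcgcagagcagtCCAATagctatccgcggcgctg
Mcm6: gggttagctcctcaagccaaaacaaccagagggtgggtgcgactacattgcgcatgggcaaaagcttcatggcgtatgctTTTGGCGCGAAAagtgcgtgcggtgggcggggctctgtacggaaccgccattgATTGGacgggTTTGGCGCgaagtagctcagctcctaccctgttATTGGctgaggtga

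The values are FPKM, fragments scaled both to transcript length and to library size, so that levels can be compared between genes. Summed FPKM per library ran from 519609 to 602763, and mitochondrially encoded rows made up 48.6% to 53.2% of it. Total fragments per library were not used here, and low values of short single-exon genes gave a rough depth of 38200000 to 40700000 fragments in control libraries and 30600000 to 38500000 in CCl4 libraries. Fibroblast markers were present in every library (Pdgfra, Tcf21, Col1a1, Dcn, Lum and Dpt summed to 121 to 199 FPKM), but 8 cardiomyocyte markers summed to 10561 to 12325 FPKM in control and 15226 to 16684 in CCl4 libraries. Of these 8, Actc1 rose from 1735 ± 477 to 5840 ± 261 FPKM, Myh7 fell from 955 ± 574 to 71.2 ± 9.84, and Myh6, Tnnt2, Tnni3, Ryr2, Pln and Mb did not pass. The libraries thus held abundant cardiomyocyte transcripts beside those of the labelled cell type, and which cells the RNA of a given gene came from was not measured. Of the fibroblast markers Col1a1, Lum and Dpt were higher in CCl4 and none was lower. Endothelial markers summed to 104 to 119 FPKM in control and 122 to 139 in CCl4 libraries, and macrophage and monocyte markers to 110 to 143 and 129 to 145. Mural cell markers summed to 166 to 197 FPKM in control and 121 to 174 in CCl4 libraries. Of the endothelial, macrophage and mural markers only Kdr, Cd68 and Cspg4 passed, all higher in CCl4. Lymphocyte, neutrophil, mesothelial and Schwann cell markers each summed to 24 FPKM or less. Of these only the lymphocyte marker Nkg7 passed, and it was lower in CCl4 (-2.07 ± 0.27, limma adjusted p = 0.00226). In bulk RNA a change in the number of cells of a type and a change in RNA per cell cannot be told apart.

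Cell cycle transcripts were scarce in both groups. The mean over the 6 libraries ranged from 0.015 FPKM for Bub1 to 9.96 FPKM for Pcna, with a median of 0.199, and 43 of the 54 genes were under 1 FPKM. A linear model (limma) on log2(FPKM + 0.1) was fitted to all 17262 rows with a mean of at least 0.1 FPKM, with p-values adjusted over all of them by the Benjamini-Hochberg method and called under 0.05. It could test 40 of the 54, since 14 were below that level. Ccnd1, Cenpa, Ccna2, Ube2c, Cdca3 and Mcm5 rose in CCl4, and Pcna and Mcm7 fell. These 6 higher and 2 lower calls among 40 stand beside 6.63% higher and 14% lower among all rows fitted, 20.6% in either direction. The 11 genes with a mean of at least 1 FPKM gave 2 higher and 2 lower calls, where such rows gave 8.21% and 19.2% (27.4% in all). The 29 tested genes under 1 FPKM gave 4 higher and no lower calls, where such rows gave 3.85% and 4.93% (8.78% in all). Ccna2, Ube2c, Cdca3, Top2a, Tpx2 and Pbk had a control mean under 0.1 FPKM and reached the filter through their CCl4 values, and no tested gene reached it through the controls alone, so counts and medians of tested genes are not support for a direction. The median log2 fold change of the tested genes was 0.38, and that of all rows fitted was -0.10. Rescaling the table to a common sum moved the median of all rows to -0.24, and TMM scaling moved it to -0.02, so the small falls below are read against that shift.

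**Figure D1:**
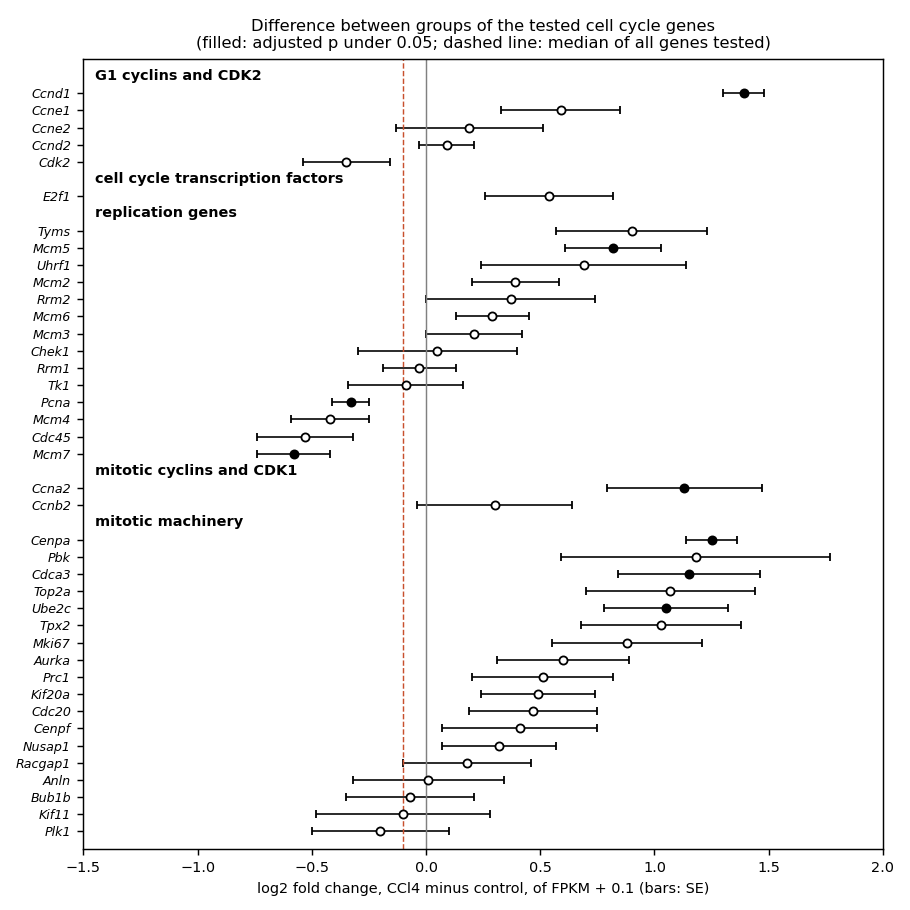
Log2 fold change, CCl4 minus control, of FPKM + 0.1 for the 40 cell cycle genes tested, ordered within role. Points are limma estimates over 3 and 3 libraries, bars are 1 SE, filled points have an adjusted p under 0.05, and the dashed line is the median of all rows fitted (-0.10). Ccnd1 and Cenpa have the shortest bars among the genes that rose, and replication genes lie on both sides of 0.

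Among the G1 cyclins, cyclin D1 stood apart from the rest. Ccnd1, which encodes the D-type cyclin that links growth signals to CDK4 and CDK6 (chr7:144929931-144939925, minus strand), measured 4.40, 5.05 and 5.34 FPKM in the control libraries and 12.95, 13.48 and 12.66 in the CCl4 libraries. Every CCl4 library was far above every control library, and libraries within a group differed little. The means were 4.93 ± 0.481 and 13 ± 0.416 FPKM (SD, n = 3), a log2 fold change of 1.39 ± 0.09 (SE, limma adjusted p = 2.17e-04). LTO1, a gene on the opposite strand that overlaps 23.4% of the annotated exon bases of Ccnd1, also rose, by 0.65 ± 0.13 on the log2 scale (limma adjusted p = 0.0115). It stood at 1.29 ± 0.115 FPKM in control and 2.09 ± 0.208 in CCl4 libraries, well below Ccnd1. The library kit keeps strand, but no source names the strand setting of the quantification, so an exchange of reads between these genes was not tested.

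Cyclin D2, the related cyclin, did not pass the test. Ccnd2 measured 7.44, 6.06 and 7.57 FPKM in control and 6.52, 8.13 and 7.86 in CCl4 libraries, and the groups overlapped. Its log2 fold change was 0.09 ± 0.12 (limma adjusted p = 0.631), and it turned to -0.06 when the table was rescaled to a common sum. In control libraries Ccnd2 was the more abundant of these 2 cyclins per length, and in CCl4 libraries Ccnd1 was. Cdk2, the kinase partner of cyclins E and A, measured 2.68, 1.70 and 1.94 FPKM in control and 1.35, 1.87 and 1.61 in CCl4 libraries, with a log2 fold change of -0.35 ± 0.19 (limma adjusted p = 0.226). Cyclin E starts replication with CDK2. Its gene Ccne1 was low, at 0.17 to 0.22 FPKM in control and 0.26 to 0.45 in CCl4 libraries, and although the groups did not overlap it did not pass (0.59 ± 0.26, limma adjusted p = 0.14). Ccne2 ran from 0.46 to 0.66 and from 0.35 to 0.92 FPKM. Ints8 overlaps 17.4% of the exon bases of Ccne2 on the opposite strand. It stood at 1.64 ± 0.119 FPKM in control and 1.51 ± 0.0404 in CCl4 libraries, and an exchange of reads was not tested.

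Replication genes moved in both directions. Of 15, 14 were tested, 1 rose and 2 fell, which is near the 6.63% and 14% of all rows fitted, and the log2 fold changes ran from -0.58 to 0.90 with a median of 0.13. Pcna, the sliding clamp that holds DNA polymerase on its template (chr2:132249162-132253314, minus strand), was the most abundant of the 54 genes. It measured 11.53, 11.58 and 10.23 FPKM in control and 9.01, 8.99 and 8.44 in CCl4 libraries, so the groups did not overlap, but they lay close together. The means were 11.1 ± 0.765 and 8.81 ± 0.323 FPKM, a log2 fold change of -0.33 ± 0.08 (limma adjusted p = 0.0285). The call was lost under TMM scaling (-0.24, limma adjusted p = 0.102) and under quantile and median-ratio scaling (adjusted p = 0.119 and 0.125). Without any 1 library its adjusted p lay between 0.0279 and 0.106, above 0.05 in 5 of the 6 fits, all but the one that left out control library 3.

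The MCM2 to MCM7 proteins form the ring-shaped helicase that unwinds DNA at each origin, and the complex needs 1 copy of each subunit. Their transcripts moved in different directions. Mcm5 (chr8:75109569-75128439, plus strand) measured 0.39, 0.28 and 0.45 FPKM in control and 0.64, 0.87 and 0.68 in CCl4 libraries, with no overlap. It rose by 0.82 ± 0.21 on the log2 scale (limma adjusted p = 0.0317), from 0.373 ± 0.0862 to 0.73 ± 0.123 FPKM. Mcm7 (chr5:138164583-138172422, minus strand) measured 2.39, 2.31 and 2.43 FPKM in control and 1.34, 2.01 and 1.41 in CCl4 libraries. CCl4 library 2 lay nearest to the controls. Mcm7 fell by 0.58 on the log2 scale (SE 0.16, limma adjusted p = 0.0388), from 2.38 ± 0.0611 to 1.59 ± 0.368 FPKM. Exons of Ap4m1 and Cops6 overlap Mcm7 on the opposite strand by 7.25% and 1.45% of its exon bases. Cops6 also fell (-0.29 ± 0.06, limma adjusted p = 0.0189). It stood well above Mcm7, at 32.1 ± 0.686 FPKM in control and 26.3 ± 0.588 in CCl4 libraries. Ap4m1 was lower in every CCl4 library than in any control but did not pass (-0.32 ± 0.15, limma adjusted p = 0.182). An exchange of reads was not tested. Both helicase calls were fragile: leaving out a single library gave adjusted p-values of 0.0376 to 0.103 for Mcm5 and 0.0137 to 0.125 for Mcm7, over 0.05 in 5 of 6 fits each. Mcm5 passed only without control library 3, and Mcm7 only without CCl4 library 2. Mcm7 also missed the threshold under TMM scaling (adjusted p = 0.0508).

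The other 4 helicase genes did not pass. Mcm2 measured 0.37, 0.56 and 0.44 FPKM in control and 0.67, 0.58 and 0.62 in CCl4 libraries, where the groups just failed to overlap (0.39 ± 0.19, limma adjusted p = 0.193). Mcm4 measured 1.97, 2.30 and 2.48 FPKM in control and 1.30, 1.97 and 1.76 in CCl4 libraries (-0.42 ± 0.17, limma adjusted p = 0.12). The groups met at 1.97 FPKM. Mcm3 measured 1.06, 0.83 and 1.48 FPKM and then 1.27, 1.51 and 1.10 (0.21 ± 0.21). Mcm6 measured 1.65, 1.18 and 1.41 FPKM and then 1.91, 1.80 and 1.53 (0.29 ± 0.16), and both overlapped between groups. The summed level of the 6 helicase genes was 7.99 ± 0.631 FPKM in control and 7.66 ± 0.938 in CCl4 libraries, a difference smaller than the spread within either group.

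Genes of nucleotide supply and of origin firing were also mixed. Tyms, thymidylate synthase, measured 0.08, 0.06 and 0.20 FPKM in control and 0.34, 0.23 and 0.29 in CCl4 libraries, with no overlap, but did not pass (0.90 ± 0.33, limma adjusted p = 0.0878). Cdc45, which activates the helicase, ran the other way, at 0.55, 0.84 and 0.91 FPKM against 0.44, 0.52 and 0.51 (-0.53 ± 0.21, limma adjusted p = 0.113). Ufd1 overlaps 5.96% of the exon bases of Cdc45 on the opposite strand. It stood well above Cdc45, at 8.79 ± 0.118 FPKM in control and 7.75 ± 0.707 in CCl4 libraries (-0.18 ± 0.09, limma adjusted p = 0.19). An exchange of reads was not tested. Rrm1, the large subunit of ribonucleotide reductase, measured 1.32, 1.15 and 1.19 FPKM in control and 1.23, 1.40 and 0.97 in CCl4 libraries (-0.03 ± 0.16). The groups overlapped throughout, and the sign of this near-zero difference turned under TMM scaling (0.05). Rrm2, Tk1, Uhrf1 and Chek1 overlapped between groups too, with log2 fold changes of 0.37, -0.09, 0.69 and 0.05. Cdc6, the loader of the helicase, was too low to test, at 0.02 to 0.06 FPKM in control and 0.05 to 0.17 in CCl4 libraries.

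The transcription factors that drive these programmes were near the lower limit of the table. E2f1 stood at 0.10, 0.15 and 0.12 FPKM in control and 0.19, 0.29 and 0.20 in CCl4 libraries (0.54 ± 0.28, limma adjusted p = 0.209). Foxm1, the activator of mitotic genes, was listed at 0.02, 0.05 and 0.09 FPKM and then at 0.15, 0.15 and 0.13. The CCl4 libraries were above the control libraries for both genes, but Foxm1 was under the level for testing. Mybl2, which encodes B-MYB, overlapped between groups at 0.04 to 0.11 and 0.06 to 0.12 FPKM.

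Mitotic genes lay mostly on the higher side in CCl4. Over all 31 genes, tested or not, the 3 CCl4 libraries were all above the 3 control libraries for 15, the reverse held for none, and the groups overlapped for 16. Among all rows above 0 in at least 1 library, 9.26% had the CCl4 libraries all above the controls and 18.2% had them all below. The mean was higher in CCl4 for 27 of the 31 and lower for 3. Of the 20 tested, 4 rose, none fell and 16 did not pass, beside 6.63% higher and 14% lower among all rows fitted. Rows fitted with a mean under 1 FPKM gave 3.85% higher and 4.93% lower. The median log2 fold change of the 20 was 0.50 (0.49 without Cenpa), with a range from -0.20 to 1.25. However, 6 of the 20, among them Ccna2, Ube2c and Cdca3, were tested only because of their CCl4 values.

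Cenpa, the histone H3 variant that marks the centromere (chr5:30666777-30674830, plus strand), had the smallest p of the mitotic genes. It measured 3.48, 2.76 and 3.29 FPKM in control and 7.95, 7.41 and 7.70 in CCl4 libraries. The groups were far apart and narrow, at 3.18 ± 0.373 and 7.69 ± 0.27 FPKM, a log2 fold change of 1.25 ± 0.11 (limma adjusted p = 4.28e-04). Its level did not resemble that of its fellow mitotic genes: only Cenpf, at 1.13 FPKM, also had a mean over 1. The gene upstream on the same strand, Slc35f6 (chr5:30647933-30659729), ends 7047 bases before Cenpa and rose as well. Slc35f6 measured 4.10, 3.67 and 4.14 FPKM in control and 7.29, 7.43 and 8.26 in CCl4 libraries (0.93 ± 0.10, limma adjusted p = 8.18e-04). Whether any Cenpa reads continue from Slc35f6 was not tested, and results for the mitotic genes are given with and without Cenpa.

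The 3 other mitotic genes that rose were all under 0.4 FPKM in every library. Ccna2, cyclin A2, which acts in S phase and at entry to mitosis (chr3:36564865-36572150, minus strand), measured 0.13, 0.02 and 0.08 FPKM in control and 0.24, 0.34 and 0.25 in CCl4 libraries (1.13 ± 0.34, limma adjusted p = 0.0487). Ube2c, the ubiquitin-conjugating enzyme of the anaphase-promoting complex (chr2:164769898-164778822, plus strand), measured 0.11, 0.08 and 0.09 FPKM and then 0.32, 0.36 and 0.23 (1.05 ± 0.27, limma adjusted p = 0.0307). Cdca3, which helps to trigger mitotic entry (chr6:124829547-124833701, plus strand), measured 0.06, 0.03 and 0.05 FPKM and then 0.22, 0.28 and 0.18 (1.15 ± 0.31, limma adjusted p = 0.0338). None of the 3 overlapped between groups. At the rough depth these levels were about 2 to 16 fragments in control and 22 to 39 in CCl4 libraries for Ccna2, 7 to 10 and 17 to 30 for Ube2c, and 2 to 5 and 12 to 21 for Cdca3. Leaving out a single library raised the adjusted p to at most 0.14 for Ccna2, 0.0981 for Ube2c and 0.107 for Cdca3, and 5, 5 and 6 of the 6 fits were over 0.05. Ccna2 and Ube2c passed only without control library 1. Tnnc2 overlaps 22.8% of the exon bases of Ube2c on the opposite strand and was listed at 0 to 0.15 FPKM. Exosc9 overlaps 12.5% of those of Ccna2 on the opposite strand and did not pass (0.11 ± 0.11). It stood at 2.6 ± 0.191 FPKM in control and 2.81 ± 0.243 in CCl4 libraries, well above Ccna2, and an exchange of reads was not tested.

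The standard markers of dividing cells did not pass. Mki67, whose protein Ki-67 coats mitotic chromosomes (chr7:135689784-135716361, minus strand), measured 0.20, 0.07 and 0.08 FPKM in control and 0.25, 0.38 and 0.24 in CCl4 libraries. All CCl4 libraries were above all controls, with control library 1 close beneath them, and the log2 fold change was 0.88 ± 0.33 (limma adjusted p = 0.0947). Without control library 1 it was 1.14 (adjusted p = 0.04999). The other 5 fits that left out 1 library did not pass (limma adjusted p up to 0.244), and Mki67 missed the threshold in 17 alternatives. Top2a, topoisomerase II alpha, which untangles sister chromosomes (chr11:98992943-99024189, minus strand), measured 0.06, 0.01 and 0.07 FPKM and then 0.29, 0.22 and 0.12 (1.07 ± 0.37, limma adjusted p = 0.076). Its adjusted p was 0.0476 after quantile scaling and 0.0492 without the variance trend. Top2a missed the threshold in the other 16 alternatives, with a limma adjusted p of 0.0804 to 0.202 without 1 library. Cdk1, the kinase that starts mitosis, was listed at 0.02, 0.05 and 0 FPKM in control and at 0.10, 0.09 and 0.06 in CCl4 libraries, under the level for testing. Its partner Ccnb1 was listed at 0.03, 0 and 0 FPKM and then at 0.06, 0.03 and 0, and Ccnb2 overlapped between groups (0.30 ± 0.34).

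Spindle and cytokinesis genes gave the same mixture of positive estimates and wide errors. Tpx2, which activates Aurora A on the spindle, measured 0.11, 0.03 and 0.08 FPKM in control and 0.17, 0.37 and 0.23 in CCl4 libraries (1.03 ± 0.35, limma adjusted p = 0.071). Aurka, encoding Aurora A itself, did not overlap between groups but did not pass (0.60 ± 0.29, limma adjusted p = 0.189), and the same held for the kinesin gene Kif20a (0.49 ± 0.25, adjusted p = 0.21). Cdc23 overlaps 29.3% of the exon bases of Kif20a on the opposite strand. It stood well above Kif20a, at 3.54 ± 0.297 FPKM in control and 3.38 ± 0.421 in CCl4 libraries, and an exchange of reads was not tested. Pbk, a mitotic kinase gene, had a log2 fold change of 1.18 with an SE of 0.59, resting on 0.21 and 0.39 FPKM in CCl4 libraries 2 and 3 and 0 in library 1. Cenpf, a kinetochore protein gene, measured 1.61, 0.51 and 0.89 FPKM in control and 0.99, 1.45 and 1.32 in CCl4 libraries, and its highest value was a control (0.41 ± 0.34, limma adjusted p = 0.444). Cdc20, Nusap1, Prc1, Racgap1 and Anln overlapped with estimates of 0.47, 0.32, 0.51, 0.18 and 0.01. The estimates of Plk1, Kif11 and Bub1b were -0.20, -0.10 and -0.07. Of the 11 mitotic genes too low to test, the mean was higher in CCl4 for all 11, and the libraries did not overlap for 6, namely Cdk1, Aurkb, Birc5, Kif23, Hmmr and Ect2. Among all rows above 0 in at least 1 library with a mean under 0.1 FPKM, 2.26% had CCl4 libraries all above the controls and 3.77% all below. Those rows need a value above 0 in only 1 library and were not matched in level to the 11 genes. At these levels a value rests on few fragments, about 1 to 9 in control and 10 to 21 in CCl4 libraries for Birc5, the gene of survivin.

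**Figure D2:**
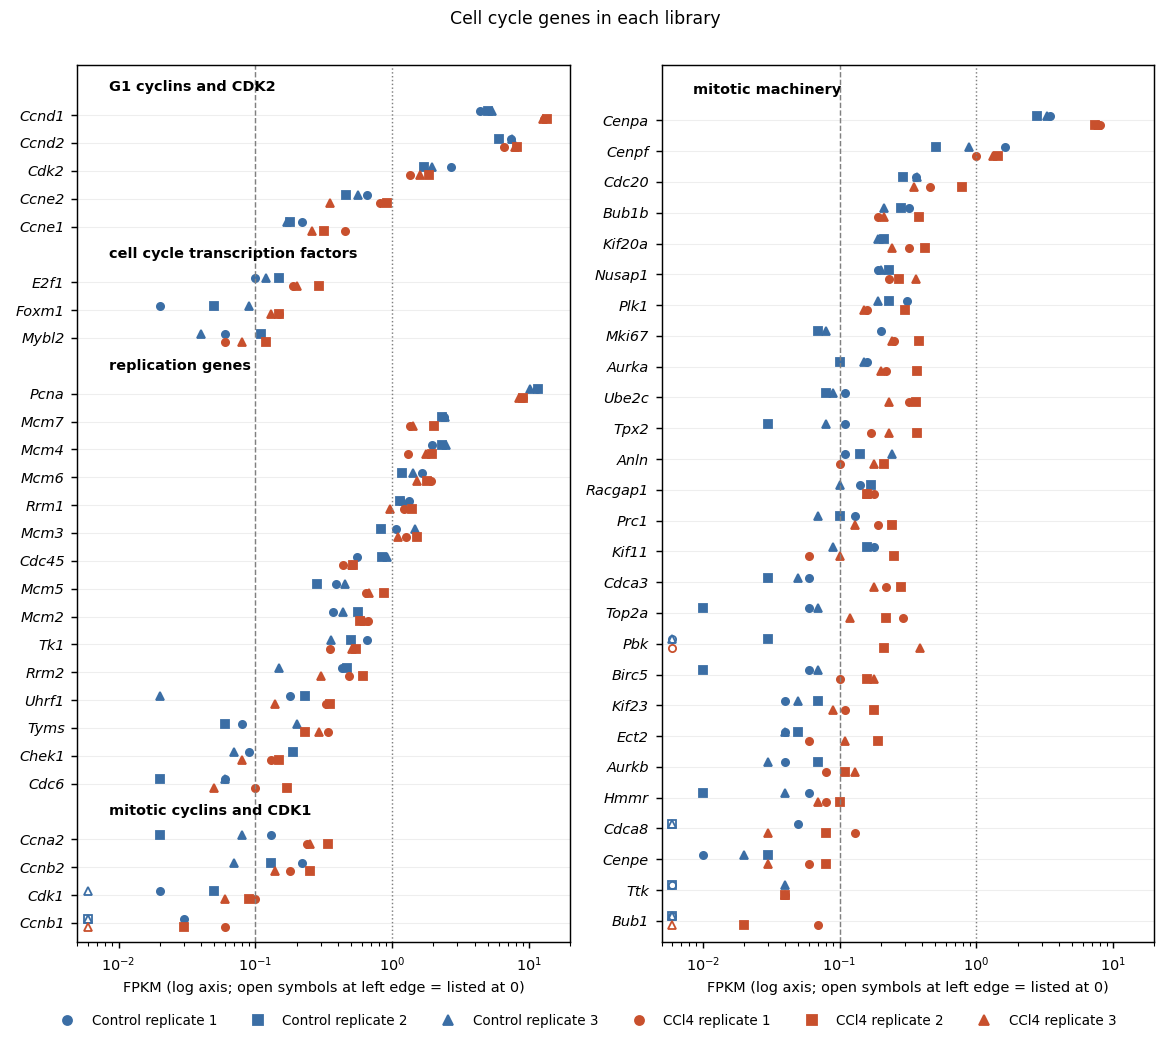
FPKM of the 54 cell cycle genes in each of the 6 libraries, on a log axis, by role. Blue symbols are control and red symbols CCl4 libraries, open symbols at the left edge are values listed at 0, the dashed line is 0.1 FPKM and the dotted line 1 FPKM. Ccnd1 and Cenpa show 2 separate groups of points, Pcna and Mcm7 lie lower in CCl4, and 29 of the 31 mitotic genes have a mean under 1 FPKM, with the CCl4 mean to the right of the control mean for 27 of the 31.

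Replication and mitotic transcripts were then compared as summed levels, leaving out Pcna and Cenpa, which would dominate their sums. The 14 remaining replication genes summed to 11.2, 10.9 and 11.6 FPKM in control and 10.5, 12.7 and 9.95 in CCl4 libraries. The 2 groups overlapped, at 11.3 ± 0.368 and 11.1 ± 1.46. The 30 remaining mitotic genes summed to 4.95, 3.11 and 3.51 FPKM in control and 5.66, 8.33 and 5.92 in CCl4 libraries. All CCl4 libraries were higher, at 6.64 ± 1.47 against 3.86 ± 0.968. The mitotic sum came to 44.2%, 28.5% and 30.1% of the replication sum in control and to 53.8%, 65.5% and 59.5% in CCl4 libraries, with no overlap. With Pcna and Cenpa included it came to 31.4% ± 5.51 and 72.1% ± 2.24. These sums are descriptions of chosen genes and carry no test, and the difference between the lists was not tested.

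Single libraries took unequal parts in the mitotic level. CCl4 library 2 alone had the highest CCl4 value for 19 of the 31 mitotic genes and for 11 of the 15 replication genes. Control library 1 alone had the highest control value for 16 of the 31 mitotic genes. The erythroid and progenitor markers Hba-a1, Hbb-bt, Alas2, Klf1 and Kit summed to 982, 234 and 324 FPKM in control and 1008, 1823 and 1472 in CCl4 libraries. This is the same order of the 6 libraries as for the mitotic sum without Cenpa. That order rests in part on Cenpf, which gave 0.99 of 5.66 FPKM in CCl4 library 1 and 1.32 of 5.92 in library 3. With Cenpf also left out, CCl4 libraries 1 and 3 change places in the mitotic sum. Hba-a1, Hbb-bt, Alas2 and Kit of these 5 markers rose in the same fit. No marker was at 0 in all libraries, and Klf1, a transcription factor of red cell precursors, ran from 0 to 0.08 FPKM. Hba-a1 had the highest mean, at 324 ± 248 FPKM in control and 898 ± 256 in CCl4 libraries, and Kit stood at 0.233 ± 0.0252 and 0.59 ± 0.01. Taken singly, Hba-a1 and Hbb-bt kept the order of the mitotic sum, and Alas2, Klf1 and Kit did not. The endothelial marker sum had that order as well, at 119, 104 and 114 FPKM in control and 122, 139 and 129 in CCl4 libraries. The part of blood or endothelial cells in the mitotic values was not tested. The neutrophil marker sum was 24 FPKM in control library 1 and 2.51 to 6.17 in the other 5 libraries, and its part was not tested either.

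**Figure D3:**
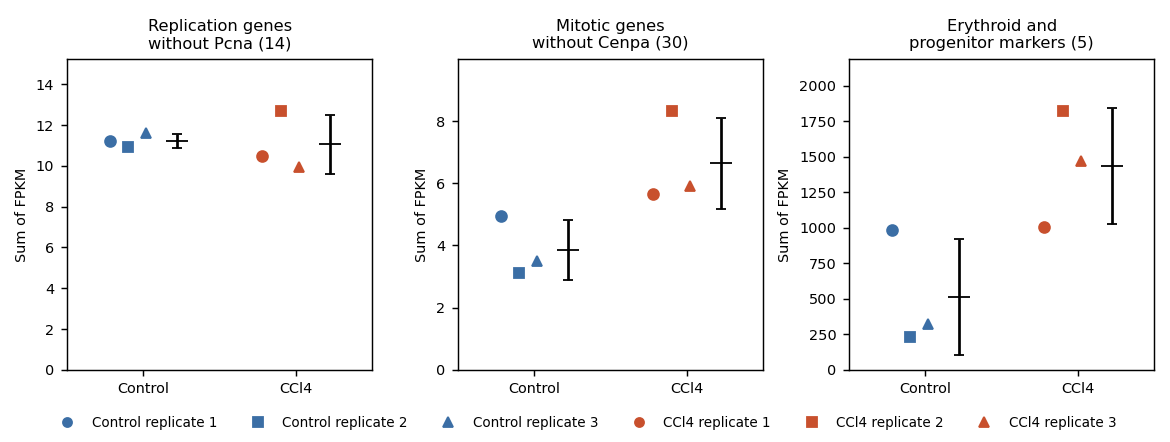
Summed FPKM per library of the 14 replication genes without Pcna, the 30 mitotic genes without Cenpa and the 5 erythroid and progenitor markers; symbols are libraries, and the line with bars is the mean with 1 SD of 3 libraries. The replication sums overlap (11.3 and 11.1 FPKM on average), the mitotic sums do not, and control library 1 is the highest control in the mitotic and marker panels.

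The CDK inhibitors p21 and p27 fell in CCl4. Of 8 CDK inhibitors 7 were tested, 2 fell and 1 rose, with a median log2 fold change of 0.01, beside 14% and 6.63% of all rows fitted, and a count from 7 genes says little about the list. Cdkn1a, encoding p21, the inhibitor induced by p53, measured 11.06, 15.60 and 11.75 FPKM in control and 2.79, 3.56 and 3.72 in CCl4 libraries. It fell by 1.89 on the log2 scale (SE 0.16, limma adjusted p = 3.92e-04), and the groups were far apart. Cdkn1b, encoding p27, measured 10.66, 10.25 and 10.31 FPKM and then 6.50, 7.31 and 5.94 (-0.66 ± 0.09, limma adjusted p = 0.00323). Cdkn2a, the locus of p16 and p19ARF, was listed at 0.03, 0 and 0.06 FPKM in control and at 0.11, 0.46 and 0.26 in CCl4 libraries (1.45 ± 0.43, limma adjusted p = 0.0495). That call was lost in 5 of the 6 fits that left out 1 library (adjusted p up to 0.153, the exception being the fit without CCl4 library 1) and with a pseudocount of 1 or 0.01 (0.0708 and 0.0673). The control mean of Cdkn2a was under 0.1 FPKM, so it was tested only because of its CCl4 values.

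Anti-proliferative genes of the BTG and TOB, growth-arrest and GADD45 families gave 5 lower and 1 higher of 11 tested, with a median of -0.48, beside 14% and 6.63% of all rows fitted. Btg2, an early-response gene that slows entry into S phase, measured 45.28, 46.08 and 82.96 FPKM in control and 5.13, 7.15 and 5.42 in CCl4 libraries. It fell by 3.23 on the log2 scale (SE 0.24, limma adjusted p = 2.60e-04), although control library 3 stood well above the other 2. Its relatives Tob2 and Btg3 also fell. Tob2 went from 17.8 ± 1.94 to 5.57 ± 0.372 FPKM (-1.66 ± 0.10, limma adjusted p = 1.77e-04), and Btg3 from 3.26 ± 0.566 to 1.66 ± 0.206 (-0.93 ± 0.16, adjusted p = 0.00631). The growth-arrest transcript Gas5 fell too (-0.73 ± 0.14, limma adjusted p = 0.00934). The growth-arrest gene Gadd45a went the other way, at 4.89, 4.25 and 2.64 FPKM in control and 8.26, 7.56 and 6.81 in CCl4 libraries (0.97 ± 0.21, limma adjusted p = 0.0155). The lists of other cell cycle genes hold 133 genes by symbol, of which 104 were tested, 8 rose and 19 fell, where all rows fitted gave 6.63% and 14%. That balance depended on scaling, with 7 higher and 28 lower on a common sum, 10 and 14 with TMM or median-ratio factors, and 11 and 14 after quantile scaling. Of the 104 tested, 4 had a control mean under 0.1 FPKM and reached the filter through their CCl4 values, Cdkn2a among them. None reached it through the controls alone, so these counts are not support for a direction.

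**Figure D4:**
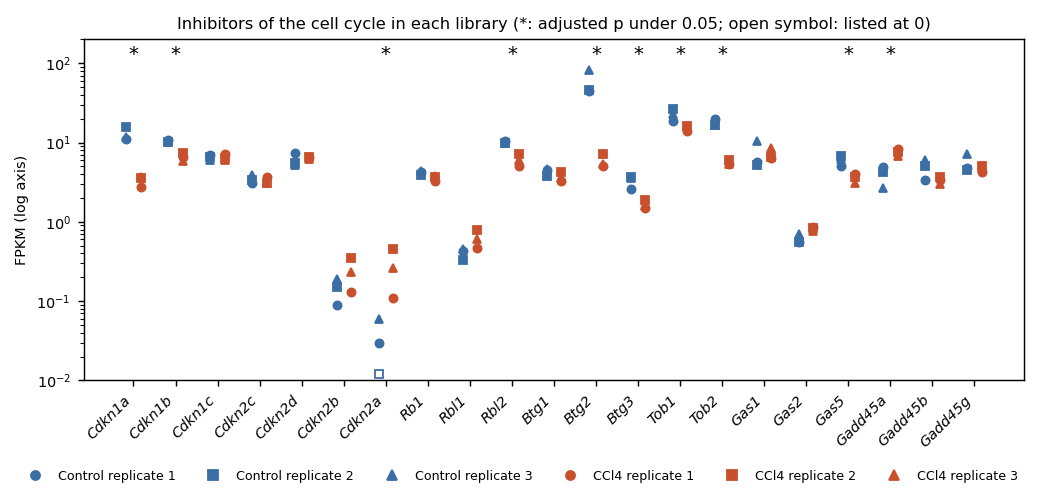
FPKM of CDK inhibitors, retinoblastoma family genes and the 11 anti-proliferative genes in the 6 libraries, on a log axis, with control in blue, CCl4 in red, an open symbol at 0 and an asterisk over genes with an adjusted p under 0.05. Cdkn1a, Cdkn1b, Rbl2, Btg2, Btg3, Tob1, Tob2 and Gas5 lie lower in CCl4, Cdkn2a and Gadd45a lie higher, and Cdkn1c, Cdkn2c and Cdkn2d coincide between groups.

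In the retinoblastoma, E2F and DREAM list 3 fell and 1 rose of 16 tested, with a median of -0.03, near the 14% and 6.63% of all rows fitted. Tfdp2, a dimer partner of E2F factors, measured 12.40, 13.72 and 10.23 FPKM in control and 3.95, 4.68 and 4.28 in CCl4 libraries (-1.47 ± 0.12, limma adjusted p = 4.13e-04). Rbl2, encoding p130, the retinoblastoma relative of the DREAM complex, measured 10.59, 9.77 and 9.98 FPKM and then 5.03, 7.10 and 6.03 (-0.74 ± 0.13, limma adjusted p = 0.00626). The groups did not overlap for either. Rbbp4, a histone-binding subunit, fell by 0.27 and the dimer partner gene Tfdp1 rose by 0.42 (limma adjusted p = 0.0388 and 0.0444), and each was over 0.05 in all 6 fits that left out 1 library. Of the other cyclins and CDKs, 3 fell and 1 rose of 13 tested, not far from those shares. Ccni, an atypical cyclin, fell from 58.8 ± 3.48 to 27.8 ± 0.705 FPKM (-1.08 ± 0.07, limma adjusted p = 2.07e-04). Ccng2 fell by 0.74 and Cdk6, a partner of D cyclins, by 0.95, while Ccng1, a target of p53, rose by 0.66 (limma adjusted p = 0.00376, 0.008 and 0.0105).

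Further replication and mitotic genes outside the 54 had median differences near 0. Of 35 other replication genes 33 were tested, 4 fell and 1 rose, with a median of -0.01, where all rows fitted gave 14% lower and 6.63% higher. Gmnn, geminin, the inhibitor of origin licensing, rose from 16.2 ± 2.51 to 26.1 ± 1.89 FPKM (0.70 ± 0.12, limma adjusted p = 0.00604), and Gins1, a helicase subunit, fell from 1.16 ± 0.125 to 0.683 ± 0.0874 (-0.68 ± 0.16, adjusted p = 0.0201). Gins4 and Rfc1 fell by 0.31 and 0.38 (limma adjusted p = 0.043 and 0.0448). Leaving out 1 library lost the call in 4 of 6 fits for Gins1, 5 for Gins4 and all 6 for Rfc1, and TMM scaling lost it for Gins4 and Rfc1 (adjusted p = 0.134 and 0.0766). Of 36 other mitotic genes only 15 were abundant enough to test. Of these 1 rose and 2 fell, near the 6.63% and 14% of all rows fitted, with a median of -0.02. Ckap2l, a spindle pole gene, rose from 0.0533 ± 0.0115 to 0.233 ± 0.0808 FPKM (1.10 ± 0.32, limma adjusted p = 0.0456), but was over 0.05 in all 6 fits that left out 1 library (0.0672 to 0.141). With a control mean under 0.1 FPKM, Ckap2l was tested only because of its CCl4 values. The 2 that fell protect sister chromatid cohesion: Sgo2a, shugoshin 2 (-1.02 ± 0.17, limma adjusted p = 0.00524), and Pttg1, securin (-0.62 ± 0.12, limma adjusted p = 0.00949), at 28.6 ± 0.935 and 18.7 ± 3 FPKM. Tested or not, the mean of these 36 was higher in CCl4 for 26 and lower for 8, and the CCl4 libraries were all above the controls for 5 and all below for 3. Among all rows above 0 in at least 1 library, 9.26% were all above and 18.2% all below. Of 12 CDC25, WEE1 and checkpoint genes, 10 were matched and 9 tested, and 2 rose and none fell, beside 6.63% and 14% of all rows fitted. The checkpoint kinase gene Chek2 rose by 0.75 and the damage sensor gene Rad17 by 0.45 (limma adjusted p = 0.0276 and 0.0256), both over 0.05 in most fits that left out 1 library.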

How the data were processed

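Libraries were made from oligo(dT)-selected RNA of 3 control and 3 CCl4 mice with a kit that keeps strand, per the labels' protocols. The authors deposited FPKM values, for which the submitters' processing notes name StringTie 2.1.6 and GRCm38. No source used here gives an aligner, annotation release, strand setting or filter. The table has 2 decimals, so values near 0.01 FPKM are coarse.

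The test was limma (version 3.58.1, R 4.3.3), lmFit followed by trended eBayes, two-sided and without covariates, on log2(FPKM + 0.1). It covered the 17262 rows whose mean reached 0.1 FPKM, with Benjamini-Hochberg adjustment over all rows. Fold changes on this scale understate the change of low genes. The script was tested on simulated data. Each library is from its own mouse per the series text. Positions and overlaps are from GENCODE on GRCm38 and promoters from RefSeq. Depth was estimated from low values of 2477 single-exon genes of 250 to 700 bp, where 34.6% to 39.3% of low values came within 10% of whole fragments, against 20% for an even spread. No count test was run, and intervals from counts were not given.

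The members and gene lists were chosen with earlier results of these data known. Values in every library were given for members that were called, had a mean of at least 1 FPKM, or were Mki67, Top2a, Cdk1, Ccnb1 or Mcm2. Of each other list, up to 4 called genes with the smallest p were named, and always Cdkn1a. Other members were named with values or as counts by role, and Foxm1, E2f1, Tyms, Cdc45, Tpx2, Tob1, Gadd45a and the neighbouring or overlapping genes were chosen for mention with their values already seen. Alternatives were other pseudocounts and filters, 5 scalings (a common sum, trimmed mean of M values or TMM, quantile, median-ratio, mitochondrial rows removed), 3 limma settings, a replicate block and leaving out each library. A cell type marker of the original lists is not reported here.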

Additional observations from a re-analysis of the deposited data

How the results depend on the processing

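Over 20 alternatives, Ccnd1 and Cenpa kept their direction and passed the threshold in all, as did Cdkn1a, Cdkn1b and Btg2. The 6 higher and 2 lower calls among the 54 genes became 4 and 1 with no filter, and 2 and 2 with a filter at 1 FPKM, where only 11 genes are tested, with a pseudocount of 0.1 or 1. The lower count was 4 on a common sum, 1 after quantile scaling and 0 with TMM, median-ratio scaling or no trend. Without 1 library, higher calls ran from 2 to 5 and lower calls from 0 to 1. Among other cell cycle genes the 8 higher calls became 5 with the filter at 1 FPKM (either pseudocount) and ran from 2 to 6 without 1 library, and the 19 lower calls ran from 13 to 16. Higher calls made up 32.1% of all calls, but 14.5% on a common sum, 22.4% without mitochondrial rows and 48.7%, 52% and 50.1% with TMM, quantile and median-ratio scaling.

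The mitotic median of 0.50 was 0.17 with a pseudocount of 1, 0.74 with 0.01 and 0.36 to 0.67 without 1 library. With the filter at 1 FPKM it was 0.83, but only 2 mitotic genes, Cenpa and Cenpf, were then left. The replication median of 0.13 reversed with that filter (-0.18, or -0.15 with a pseudocount of 1), which left 6 replication genes. It also reversed without control library 3 (-0.03), in a range of -0.03 to 0.25 without 1 library. Ccnd2 reversed on a common sum (-0.06) and without control library 2 (-0.01), in a range of -0.01 to 0.19 without 1 library. Rrm1 reversed with TMM, quantile and median-ratio scaling (0.05, 0.04 and 0.06) and without control library 1 (0.02) or CCl4 library 3 (0.10), in a range of -0.14 to 0.10. The causes were not tested.

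The values showed no pairing by replicate number: deviations of same-numbered libraries correlated at -0.05, 0.014 and -0.022. That cannot tell whether those libraries were handled together, which the labels do not state. With the replicate block, 2 of the 54 genes were higher and 0 lower, and 3 other cell cycle genes were higher and 15 lower. In that fit 833 of the 17262 rows were higher and 1626 lower, 14.2% in either direction. Most members rest on few fragments, so a change in a gene that did not pass may be undetectable at this depth.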
